A study of Mus musculus with 88 samples.

Results

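γH2AX peaks of the hippocampus are the subject of this report, together with the nuclear RNA of the genes they were assigned to. All 282 intervals of the hippocampal list were taken, of 542 deposited for the study, and the other 260 were from the medial prefrontal cortex (mPFC). The list assigned 306 gene IDs to these peaks. 1 peak had no gene assigned, and the symbol Gm12940 had no ID. Of the 306 genes, 305 were in the count tables of nuclear RNA, and Arhgef4 was not.

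Tissue came from C57BL/6J mice aged 4 months, and the mice were male. The ChIP-seq of γH2AX used the whole hippocampus of naive animals, which stayed in their home cages, and of animals 30 minutes after contextual fear conditioning (CFC), in which a mouse learns to associate a chamber with foot shock. Each replicate of the ChIP-seq pooled 3 animals, with 3 naive and 3 CFC replicates. Naive and CFC peaks were joined into 1 list with a position and a gene symbol but no score, so a peak in this list cannot be ascribed to naive or trained animals, and nothing about its height or depth is known here. RNA was measured in nuclei that were fixed and sorted by fluorescence. In the CFC experiment, nuclei with the neuronal marker NeuN (NeuN+) and without it (NeuN-, mostly glia) were sorted from naive animals and from animals 10 minutes (CFC10) or 30 minutes (CFC30) after placement in the chamber, with 4 libraries in each group. In the corticosterone experiment, mice received corticosterone at 2 mg/kg, given as a complex with a carrier, or saline. 30 minutes later NeuN+ nuclei, GFAP+ nuclei (astrocytes), PU.1+ nuclei (microglia) and nuclei negative for all 3 markers (3X-, enriched in oligodendrocytes) were sorted, with 4 libraries in each group. All populations of an experiment were gated in sequence from the same stained nuclei, so libraries with the same condition and number may come from the same animal. The labels do not name animals, and p-values measure the spread between these libraries. Library totals were 10561897 to 18271372 reads on genes (median 12255021) in the CFC experiment and 5935395 to 12758257 (median 8150233.5) in the corticosterone experiment. NeuN- naive replicates 3 and 4 held the same count for all 53749 genes. Identical in every gene, they were counted as 1 library, so that group had n = 3.

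H2AX is a variant of histone H2A, and its phosphorylated form γH2AX spreads along the chromatin on both sides of a DNA double-strand break, where it recruits repair proteins. In neurons, such breaks are known to form at active genes, including genes that respond within minutes to synaptic activity, through the action of topoisomerase II. The hippocampus is needed for contextual fear memory and is rich in receptors for glucocorticoids, the hormones released in stress, and in rodents the main one is corticosterone.

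The sorted nuclei matched their labels. In saline animals the summed level of 7 neuronal markers (Rbfox3, Snap25, Syt1, Slc17a7, Gad1, Gad2, Grin2b) was 7930 to 8213 CPM (counts scaled to the total of each library) in NeuN+ nuclei, 1771 to 2396 CPM in GFAP+, 1055 to 1619 CPM in PU.1+ and 566 to 787 CPM in 3X- nuclei. 6 astrocyte markers (such as Aqp4 and Gja1) summed to 2809 to 3648 CPM in GFAP+ nuclei and to at most 328 CPM in the other populations. 7 microglial markers (such as Cx3cr1 and P2ry12) summed to 6601 to 7152 CPM in PU.1+ nuclei and to at most 52.2 CPM elsewhere, and 5 oligodendrocyte markers (such as Mog) to 3106 to 3389 CPM in 3X- nuclei and to at most 352 CPM elsewhere. No marker was at 0 in a population it marks. Neuronal RNA was present in every glial population, and most in GFAP+ nuclei. No marker of astrocytes, microglia or oligodendrocytes in these lists had a peak, and 4 of the 7 neuronal markers had one (Snap25, Syt1, Slc17a7 and Grin2b). This contrast depends on the few markers chosen, as other genes of glia had a peak, such as Slc1a2, Glul and Mbp. In longer lists, 12 of 21 genes of astrocyte and glial metabolism and 4 of 20 of oligodendrocytes and myelin had one.

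Several peaks covered host transcripts of microRNAs, which are short RNAs that pair with messenger RNAs through a seed (bases 2 to 8). Of 1005 microRNA hairpins in the RefSeq table of GRCm38, 100 lay inside a hippocampal peak, and these were in 32 peaks. The imprinted Meg3, Rtl1, Rian and Mirg region on chromosome 12, covered by a single peak of 210993 bp, held 57 of them. The mature sequences below are those of microRNAs inside peaks whose host genes responded in the comparisons that follow, or that share a seed across peaks, and 1 of the Meg3 region. Capitals mark the seed.
mmu-miR-132-3p: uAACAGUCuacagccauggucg
mmu-miR-212-3p: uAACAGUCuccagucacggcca
mmu-miR-9-5p: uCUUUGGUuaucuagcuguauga
mmu-miR-29a-3p: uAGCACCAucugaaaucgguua
mmu-miR-29b-3p: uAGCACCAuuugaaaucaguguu
mmu-miR-29c-3p: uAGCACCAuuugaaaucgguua
mmu-let-7b-5p: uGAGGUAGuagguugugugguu
mmu-let-7c-5p: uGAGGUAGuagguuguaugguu
mmu-miR-26a-5p: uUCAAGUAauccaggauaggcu
mmu-miR-138-5p: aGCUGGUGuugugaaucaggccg
mmu-miR-134-5p: uGUGACUGguugaccagagggg
miR-132-3p and miR-212-3p share the seed AACAGUC, and both hairpins lay in the peak of 1700016P03Rik (chr11:75172724-75182617, plus strand), their host. miR-9-5p was encoded in 2 peaks, as Mir9-1 in that of Gm3764 (chr3:88206765-88231830) and as Mir9-2 in that of C130071C03Rik (chr13:83715213-83750693). The miR-29 family, with the seed AGCACCA, was also in 2 peaks, Mir29a and Mir29b-1 in that of Lncpint and Mir29b-2 and Mir29c in that of A330023F24Rik. let-7b and let-7c share the seed GAGGUAG and lay in the peak of AC162302.2. Mir26a-2 was in the peak of Ctdsp2, Mir138-1 in that of Gm35501 and Gm47135, and Mir134 in the Meg3 region. Mature microRNAs were not measured; the libraries give only the nuclear RNA of the host genes.

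Promoters are shown for 6 peak genes that were called in at least 2 of the 8 responses below and whose window of 250 bases before the start site held a searched motif. Windows that overlapped an annotated exon were not printed. The sequences are from GRCm38 in the direction of transcription, with starts from RefSeq, and capitals mark the motif.
Klf9, chr19:23140976-23141225, plus strand: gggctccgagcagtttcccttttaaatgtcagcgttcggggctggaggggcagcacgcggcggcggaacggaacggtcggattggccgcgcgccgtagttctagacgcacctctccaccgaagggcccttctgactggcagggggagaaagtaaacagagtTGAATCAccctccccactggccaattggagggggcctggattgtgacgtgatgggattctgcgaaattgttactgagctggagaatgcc
Sgk1, chr10:21881934-21882183, plus strand: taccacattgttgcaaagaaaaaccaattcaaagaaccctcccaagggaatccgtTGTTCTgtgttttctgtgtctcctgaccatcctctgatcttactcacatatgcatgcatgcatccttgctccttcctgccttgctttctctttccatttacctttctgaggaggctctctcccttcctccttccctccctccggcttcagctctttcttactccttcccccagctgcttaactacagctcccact
Sh3bp5, chr14:31436101-31436350, minus strand: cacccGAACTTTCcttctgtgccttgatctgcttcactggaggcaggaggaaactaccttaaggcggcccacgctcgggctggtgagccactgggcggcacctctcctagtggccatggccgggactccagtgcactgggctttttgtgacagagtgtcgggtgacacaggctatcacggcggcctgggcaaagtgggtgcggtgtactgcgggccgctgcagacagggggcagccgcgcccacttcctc
Pitpnm2, chr5:124249761-124250010, minus strand: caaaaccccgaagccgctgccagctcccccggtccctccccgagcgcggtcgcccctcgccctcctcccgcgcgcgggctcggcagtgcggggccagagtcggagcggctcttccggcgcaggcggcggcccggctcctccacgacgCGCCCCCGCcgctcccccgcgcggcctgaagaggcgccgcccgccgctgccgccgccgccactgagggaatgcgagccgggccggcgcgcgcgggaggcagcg
Nr4a1, chr15:101266596-101266845, plus strand: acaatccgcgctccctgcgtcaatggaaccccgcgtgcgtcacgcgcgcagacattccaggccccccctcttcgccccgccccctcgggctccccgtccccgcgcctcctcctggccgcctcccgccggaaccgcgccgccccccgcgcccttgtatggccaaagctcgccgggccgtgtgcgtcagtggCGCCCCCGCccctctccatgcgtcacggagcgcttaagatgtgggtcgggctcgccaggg
Gm3764, chr3:88214232-88214481, plus strand: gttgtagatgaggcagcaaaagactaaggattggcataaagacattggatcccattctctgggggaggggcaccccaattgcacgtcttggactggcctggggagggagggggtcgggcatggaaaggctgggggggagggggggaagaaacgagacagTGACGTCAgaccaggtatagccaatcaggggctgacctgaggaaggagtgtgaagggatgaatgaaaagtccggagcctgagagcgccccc
The Klf9 window held TGAATCA, which began 89 bases before the start. It matches TGANTCA, the AP-1 site with its middle base left free in the search. The usual AP-1 site has C or G there, so this match is not the usual site. The Sgk1 window held the hexamer bound by the glucocorticoid receptor (AGAACA, here TGTTCT on the other strand) 195 bases before. The Sh3bp5 window held a pair of heat shock units (GAANNTTC) 245 bases before. The Pitpnm2 and Nr4a1 windows held an EGR site (GCGNGGGCG, here on the other strand) 103 and 60 bases before. The Gm3764 window held a cAMP response element (TGACGTCA) 91 bases before. Of these windows, those of Klf9, Nr4a1 and Gm3764 lay inside the gene's peak, and those of Sgk1, Sh3bp5 and Pitpnm2 outside it. The Sgk1 and Pitpnm2 windows were far upstream of the peaks, which lay at chr10:21992635-22001490 and chr5:124111413-124199612. Each window was that of the first suitable start listed for the gene, so other starts may lie nearer the peak. A match describes the letters only. Over all 27025 promoters of the RefSeq table, searched on both strands, 16.2% held AGAACA, 6.87% TGANTCA, 6.78% GAANNTTC, 6.05% the E-box CACGTG, 4.65% GCGNGGGCG and 1.62% TGACGTCA. Of the 306 peak genes, 222 had a promoter in this table, matched by ID or, failing that, by symbol, and the rest are not in the shares. Among the 222 the shares were 12.2% (27 genes), 4.05% (9), 4.95% (11), 6.76% (15), 11.7% (26) and 3.15% (7). The promoters of peak genes also had a higher GC content than all promoters, with a median of 62.4% against 52.0%, and held a median of 17.5 CpG dinucleotides against 6, and the part of this difference in the shares above was not tested.

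The peaks followed gene bodies. The end of the assigned gene was inside the peak for 278 of 306 genes and the start site for 168; both were inside for 157, only the end for 121, only the start for 11 and neither for 17. Most of the assigned genes were protein coding (283), and 13 were lincRNAs and 6 processed transcripts. They were short for protein-coding genes, with a median length of 10560 bp against 17318 bp over all 22028 protein-coding genes, and exons made up a median of 37.4% of their length against 20.5%. 11 were histone genes, many of which have near-identical copies. The 40137 bp peak assigned to Tnfrsf25 and Plekhg5 held the whole of Tnfrsf25, but only 10.4% of that peak was Tnfrsf25. The assignment was not always by position: the peak assigned to Rpl19 (chr11:98030572-98031799) shared no base with the annotated Rpl19.

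GC content fell as width rose. The genome, over the chromosomes with a peak, was 41.76% GC, and the peaks had a median of 48.78%. The narrow peaks, by 3 equal classes of width (876 to 9601 bp) had a median of 51.14%, the middle class (9774 to 35187 bp) 50.24% and the wide class (35440 to 605229 bp) 45.19%. CpG dinucleotides went the same way, at 28.88, 19.09 and 11.89 per kb, and 8.34 per kb in the genome. Over all 282 peaks the correlation of log10 width with GC content was r = -0.45 (Spearman's rho = -0.434); it is a description across peaks, which are not replicates. The part of gene length in this relation was not tested.

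**Figure D1:**
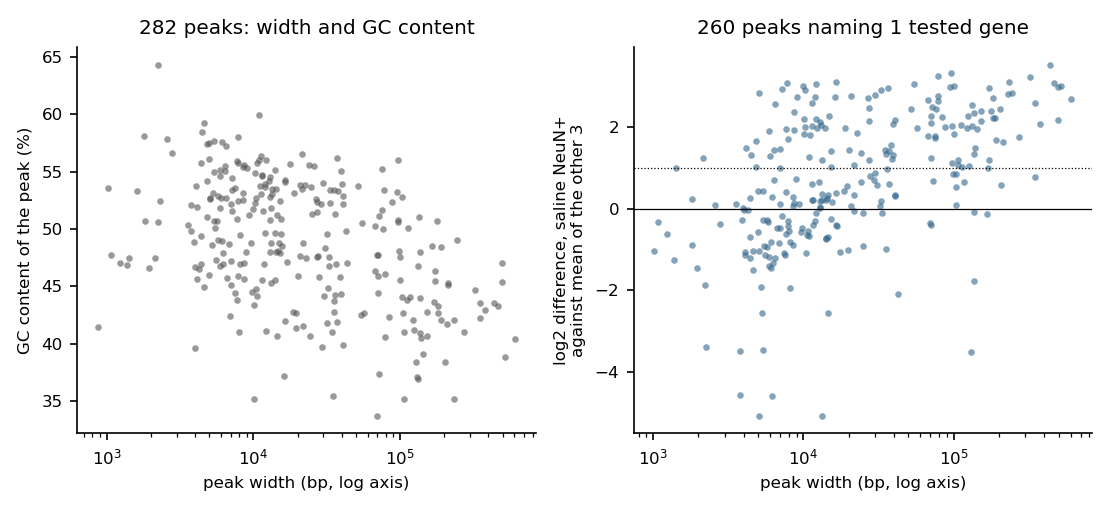
Left, GC content (%) of each of the 282 hippocampal γH2AX peaks against its width (bp, log axis). Right, log2 difference of the gene's RNA in saline NeuN+ nuclei from the mean of the other 3 populations against peak width, for the 260 peaks that name 1 tested gene; wide peaks had lower GC content (r = -0.45) and genes with more RNA in NeuN+ nuclei (r = 0.516), and the dotted line is the threshold of 1.

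Some peaks were close neighbors. 13 runs of peaks lay within 100 kb of each other and held 29 peaks in all. 3 peaks covered the metallothionein genes Mt3, Mt2 and Mt1 in 30396 bp of chromosome 8 (chr8:94152417-94182812), 3 covered Hist2 histone genes in 51291 bp of chromosome 3, and 3 covered Jund, Rab3a and Mast3 in 106503 bp of chromosome 8. The other runs were pairs, such as Adgrb1 and Arc on chromosome 15, Tuba1b and Tuba1a on chromosome 15, and Nfix and Calr on chromosome 8. Chromosome 11 had the most peaks (29) and chromosome X 2.

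How the peak genes were expressed without treatment was asked in the 4 saline populations. Neurons stood out. Of 304 peak genes tested, 142 (46.71%) were higher in NeuN+ nuclei than in the mean of the other 3 populations (adjusted p under 0.05 and a log2 difference above 1), against 17.1% of all 17284 genes tested. In GFAP+ nuclei 44 were higher (14.47% against 14.2% of all genes), in PU.1+ nuclei 24 (7.89% against 16.7%) and in 3X- nuclei 22 (7.24% against 11.9%). 99 of the 304 were called in no population, 178 in 1 and 27 in a pair, of which 15 pairs were NeuN+ with GFAP+. The median log2 difference of peak genes was 0.755 in NeuN+ (all genes -0.116), 0.102 in GFAP+ (-0.065), -0.621 in PU.1+ (-0.069) and -0.438 in 3X- nuclei (-0.043). In bulk libraries of nuclei, fewer cells of a type and less RNA per nucleus cannot be told apart.

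**Figure D2:**
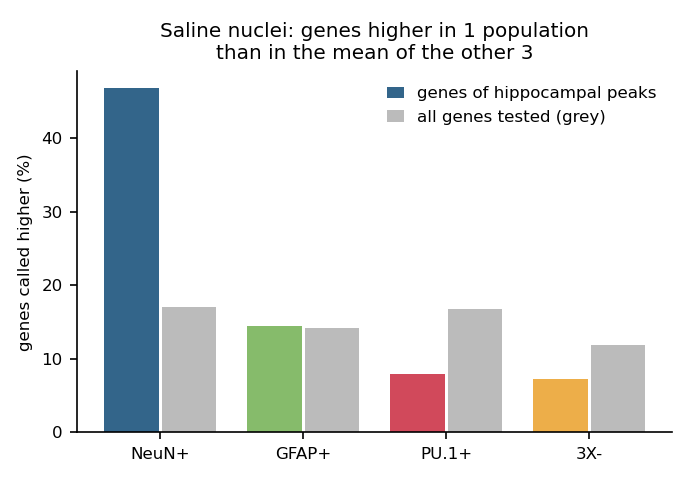
Percent of tested genes called higher in each saline population than in the mean of the other 3 (adjusted p under 0.05, log2 difference above 1). Colored bars are the 304 genes of hippocampal peaks and grey bars all 17284 genes tested; the share of peak genes was 46.71% in NeuN+ nuclei and 7.24% to 14.47% in the other populations.

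Peak genes took up 11.4% to 11.6% of all counts in the 4 saline NeuN+ libraries, 9.09% to 9.51% in GFAP+, 4.57% to 5.23% in PU.1+ and 5.78% to 6.34% in 3X- libraries, with no overlap between populations. Per kb of gene body, the median peak gene was at 3.17 FPKM in NeuN+ nuclei (all tested genes 0.519), 2.80 in GFAP+ (0.685), 2.00 in PU.1+ (0.694) and 1.80 in 3X- nuclei (0.619).

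Grin2a led the neuronal group. This subunit of the NMDA glutamate receptor was at 4536, 4200, 4466 and 4231 CPM in the 4 NeuN+ libraries, 864, 644, 869 and 990.5 CPM in GFAP+, 521, 589, 696 and 708 CPM in PU.1+ and 179, 192, 268 and 252 CPM in 3X- libraries. The populations did not overlap except GFAP+ with PU.1+, and the log2 difference of NeuN+ from the rest was 3.54 ± 0.09 SE. Tnfrsf25, a receptor of the tumor necrosis factor family, Bcl11b, a transcription factor of neurons, and Wipf3, a partner of the actin regulator WASP, followed with 3.33, 3.33 and 3.26, and the noncoding Gm26906, at a mean of 1.67 CPM, with 3.38. Gm26906 overlaps the peak gene Meg3 on the opposite strand, so that their reads cannot be separated with certainty. Of the gene lists, 19 of 26 glutamate receptor and synaptic signalling genes with a peak were higher in NeuN+ nuclei, 13 of 16 presynaptic genes, 9 of 14 neuronal transcription factors and 15 of 22 noncoding and microRNA host genes.

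In GFAP+ nuclei the leading peak genes were those of astrocytes. Slc1a2, the main glial glutamate transporter, was at 8641, 10800, 9667 and 8799 CPM there and at 272, 254, 272 and 276 CPM in NeuN+ libraries, 372, 386, 539 and 489 CPM in PU.1+ and 384, 469, 393 and 367 CPM in 3X- libraries. Its log2 difference was 4.61 ± 0.08 SE, and the GFAP+ libraries were all above the rest. The Notch target Hes5 (4.46), the helix-loop-helix inhibitor Id3 (4.65), the metallothionein Mt2 (4.59) and Utp14b (3.85), whose gene overlaps Acsl3 so that their reads cannot be separated with certainty, completed the leading 5. Of the 12 peak genes in the list of astrocyte and glial metabolism, 10 were higher in GFAP+ nuclei.

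The microglial and oligodendrocyte groups were small, with shares below those of all genes (7.89% against 16.7% and 7.24% against 11.9%). Cst3, the secreted protease inhibitor cystatin C, was at 498, 505, 512 and 496 CPM in PU.1+ libraries, 197, 281, 238 and 248 CPM in GFAP+, 29.6, 24.9, 23.9 and 24.6 CPM in 3X- and 4.47, 4.87, 4.09 and 5.01 CPM in NeuN+ libraries. Cst3 and Klf2 were called in both PU.1+ and GFAP+ nuclei. Limd2 (2.59), the MAP kinase phosphatase Dusp6 (2.45), the actin-binding peptide gene Tmsb4x (2.28) and the AP-1 subunit Junb (2.26) were also higher in PU.1+ nuclei. Mbp, the myelin basic protein, was at 4032, 3958, 3749 and 3758 CPM in 3X- libraries, 506, 335, 312 and 307 CPM in GFAP+, 137, 143, 191 and 179.9 CPM in PU.1+ and 105, 115, 107 and 113 CPM in NeuN+ libraries. The 3X- libraries were far above the rest, with a log2 difference of 4.37 ± 0.09 SE. Scd2, a desaturase of lipid synthesis (2.80), Prickle2 (2.16), Klhl2 (2.01) and Hes5 (2.46, at a mean of 4.25 CPM) followed. Hes5 was higher still in GFAP+ nuclei, where it was called too.

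Genes of wide peaks were the neuronal ones. The median peak width was 39868.5 bp for genes higher in NeuN+ nuclei, 30037 bp in GFAP+, 10688 bp in PU.1+ and 25053.5 bp in 3X- nuclei, and 10495 bp for genes called in none. Among wide peaks 78 of 107 genes were higher in NeuN+ nuclei, in the middle class 45 of 100 and in the narrow class 19 of 97. Over the 260 peaks with 1 tested gene, log10 width correlated with the log2 difference at r = 0.516 in NeuN+, -0.135 in GFAP+, -0.393 in PU.1+ and -0.258 in 3X- nuclei. These correlations are across peaks and have no p. The 4 differences of a gene sum to 0, so they are not independent of each other. Width follows gene length, whose part was not tested.

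The CFC experiment was used to ask which peak genes changed after conditioning. Its control animals stayed in their home cages, and no group had the chamber or the shock alone. Effects of learning, of the new chamber and of the shock therefore cannot be told apart here. In NeuN+ nuclei at CFC10, immediate-early genes rose, and chaperones beside them. Of 297 peak genes tested, 41 (13.8%) rose, against 2.72% of all 12429 genes tested, and 7 (2.36%) fell, against 2.14%. The median log2 fold change was 0.086 for peak genes and 0.002 for all genes. A bare value given after a gene in the comparisons that follow is its log2 fold change, or, where effects are compared, their log2 difference. Peak genes are more abundant than most, and among genes with a mean of at least 10 CPM, a limit chosen after the values were seen, 14.3% of 217 peak genes and 3.41% of all 7427 rose. Leaving out 1 library moved the 41 to between 22 and 42, with 25 without naive replicate 1, 22 without naive replicate 3, 23 without CFC10 replicate 1 and 27 without CFC10 replicate 3, and the 7 to between 4 and 10 (4 without naive replicate 3 and without CFC10 replicates 1 and 3).

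**Figure D3:**
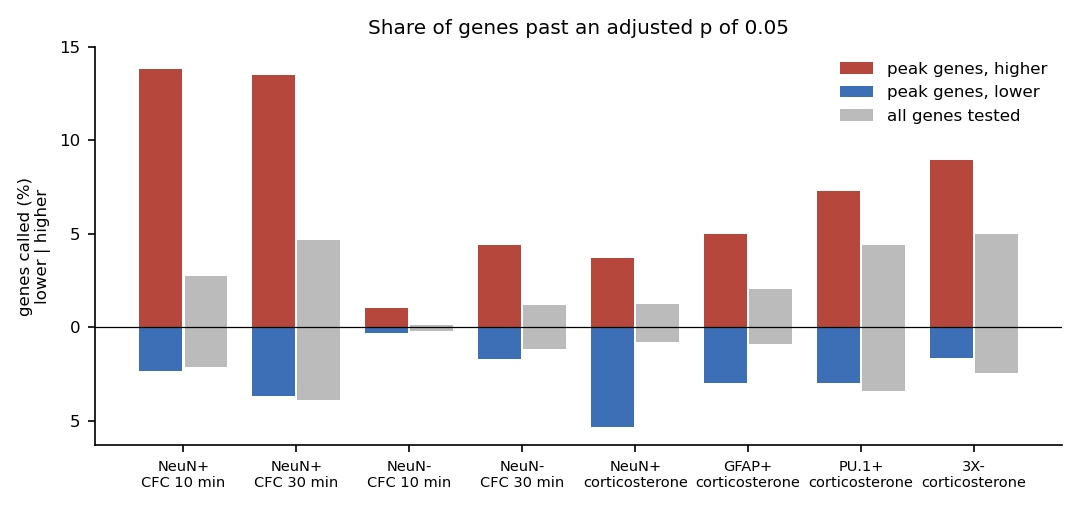
Percent of tested genes called at an adjusted p under 0.05 in each of the 8 responses, higher above the line and lower below it. Red and blue bars are genes of hippocampal peaks and grey bars all genes tested; the largest share of peak genes that rose was 13.8%, at CFC10 in NeuN+ nuclei, and the largest that fell 5.35%, after corticosterone in NeuN+ nuclei.

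Egr1, an immediate-early transcription factor, rose most. It was at 3.09, 2.23, 1.64 and 2.79 CPM in the naive NeuN+ libraries, 11.00, 13.5, 10.2 and 12.9 CPM at CFC10 and 3.62, 3.25, 6.30 and 3.37 CPM at CFC30. Neither group overlapped the naive one. The log2 fold change was 2.25 ± 0.18 SE, adjusted p = 1.62e-07 at CFC10 and 0.77 ± 0.22 SE, adjusted p = 0.0363 at CFC30. The second call was lost without naive replicates 2, 3 or 4 or without CFC30 replicate 3, the highest of its group, with adjusted p up to 0.16.

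Arc, whose product moves glutamate receptors out of synapses, was at 4.00, 3.77, 4.50 and 4.48 CPM in naive, 19.2, 18.4, 21.4 and 19.5 CPM in CFC10 and 6.89, 8.49, 13.8 and 8.43 CPM in CFC30 NeuN+ libraries. All 8 libraries after CFC were above all naive ones. Its log2 fold change was 2.20 ± 0.15 SE, adjusted p = 8.87e-09 at CFC10 and 1.16 ± 0.17 SE, adjusted p = 0.000307 at CFC30.

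1700016P03Rik, the host transcript of the miR-132 and miR-212 hairpins whose shared seed is shown above, rose as steeply and did not come down. Naive libraries were at 4.34, 2.60, 3.11 and 2.54 CPM, CFC10 libraries at 15.7, 12.3, 14.2 and 13.7 CPM and CFC30 libraries at 12.3, 12.7, 15.3 and 12.4 CPM. The log2 fold changes were 2.13 ± 0.13 SE, adjusted p = 2.86e-09 and 2.07 ± 0.14 SE, adjusted p = 1.34e-08. The gene overlaps 3 other annotated genes, 1 of them on the opposite strand, and the strand setting of the counts is not given in the sources used here.

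Homer1, a scaffold of the postsynaptic density, was late. It was at 178, 150.4, 159 and 154 CPM in naive, 188, 179.8, 209.9 and 187 CPM in CFC10 and 255, 299.8, 336 and 321 CPM in CFC30 libraries. Its log2 fold change was 0.90 ± 0.07 SE, adjusted p = 3.59e-07 at CFC30 and 0.22 ± 0.07 SE, adjusted p = 0.0943 at CFC10. The nuclear receptor Nr4a1 showed the reverse course, with 0.74 ± 0.10 SE, adjusted p = 0.00026 at CFC10 and 0.35 ± 0.11 SE, adjusted p = 0.0437 at CFC30, where its groups overlapped and the call was lost without naive replicates 2 or 4 or without CFC30 replicates 2, 3 or 4 (adjusted p up to 0.167). Nnat, an imprinted gene of a small membrane protein, rose to 7.43, 7.82, 7.17 and 6.45 CPM at CFC30 from 2.75, 4.76, 3.19 and 3.55 CPM (log2 fold change 0.97 ± 0.17 SE, adjusted p = 0.00159), and Tnfrsf25 to 18.5, 14.5, 15.3 and 10.4 CPM from 8.43, 9.65, 8.35 and 7.27 CPM (log2 fold change 0.78 ± 0.15 SE, adjusted p = 0.00312). Groups of both genes did not overlap at CFC30. Nnat also rose at CFC10 (0.88), with overlapping groups, as did the AP-1 subunit Junb (1.68, groups apart).

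**Figure D4:**
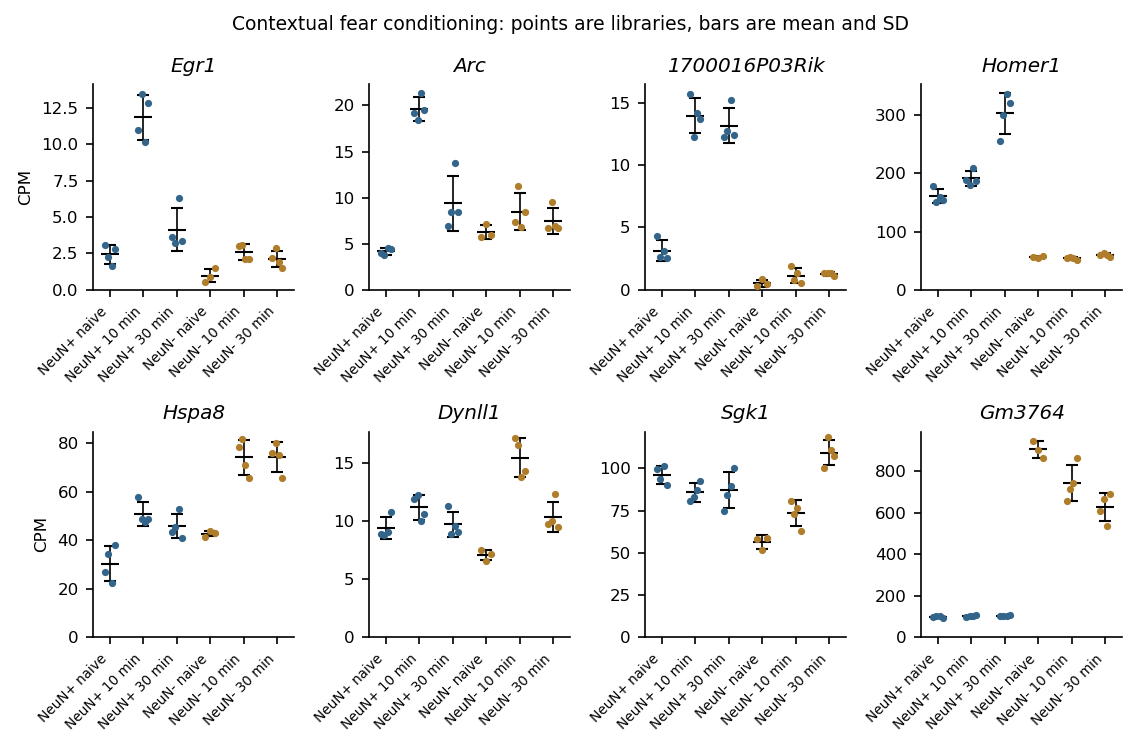
CPM of 8 peak genes in naive, CFC10 and CFC30 libraries of NeuN+ (blue) and NeuN- (brown) nuclei; points are libraries, and bars are the mean and SD (n = 4, and n = 3 for NeuN- naive). Egr1, Arc and 1700016P03Rik were highest in NeuN+ nuclei after CFC, Dynll1 and Sgk1 rose in NeuN- nuclei, and Gm3764 was lower in NeuN- nuclei at CFC30.

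By list, 11 of 20 early response genes with a peak rose at CFC10 in NeuN+ nuclei and 6 of 20 at CFC30, with none that fell. Early response genes without a peak rose in 12 of 16 and 9 of 16 cases. Of chaperones with a peak, 4 of 8 rose at each time: Hspa8, Hspa5, Dnajb5 and, at CFC10, Dnaja1, and at CFC30 Calr. Hspa8, the constitutive Hsp70, was at 26.9, 34.5, 22.2 and 37.9 CPM in naive, 58.1, 48.8, 47.4 and 48.6 CPM in CFC10 and 43.6, 45.7, 52.95 and 41.1 CPM in CFC30 libraries. Both groups after CFC were above the naive one (log2 fold change 0.70 ± 0.11 SE, adjusted p = 0.000813, and 0.58 ± 0.11 SE, adjusted p = 0.00235). 3 of 27 cytoskeletal genes rose at CFC10 (Actb, Tuba4a and Mical2), and 6 rose at CFC30, among them Arpc2, Dbn1, Map1b and Map2. At CFC10 the calls held in 1, 2 and 2 of the 8 fits that left out 1 library (adjusted p up to 0.14, 0.104 and 0.0891), and that of Dbn1 at CFC30 in 2 of 8 (up to 0.112). Among the chaperones Hspa5 at CFC10 held in 5 of 8 (up to 0.0766) and Calr at CFC30 in 6 of 8 (up to 0.0536). Of glutamate and synaptic signalling genes 1 of 26 rose at CFC10 and 4 at CFC30 (Arc, Homer1, Baiap2 and Cnih2).

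The falls in NeuN+ nuclei were smaller, with none beyond 0.49 on the log2 scale at either time. C130071C03Rik, the host of Mir9-2, went from 216, 203, 220.4 and 224 CPM in naive to 160.5, 179, 158 and 188 CPM in CFC10 and 145, 158, 166 and 187 CPM in CFC30 libraries. No library after CFC reached the naive ones (log2 fold change -0.37 ± 0.07 SE, adjusted p = 0.00484, and -0.41 ± 0.07 SE, adjusted p = 0.00122). Rsrp1, an arginine and serine rich protein, was at 93.1, 99.2, 101 and 105 CPM in naive, 78.5, 84.97, 78.4 and 83.2 CPM in CFC10 and 69.5, 64.6, 83.2 and 70.6 CPM in CFC30 libraries, again without overlap (log2 fold change -0.33 ± 0.06 SE, adjusted p = 0.00283, and -0.48 ± 0.06 SE, adjusted p = 5.76e-05). Lrrtm1, a postsynaptic adhesion protein, fell by 0.49 on the log2 scale at CFC10 (SE 0.09, adjusted p = 0.00332) and by 0.33 at CFC30, where the call was lost without naive replicates 1 or 2 or without CFC30 replicate 2 (adjusted p up to 0.0786). 3110039M20Rik fell at both times (-0.34 and -0.29), and Pcif1, a methyltransferase of the messenger RNA cap, at CFC30 (-0.37). The calls on 3110039M20Rik were lost at CFC10 without naive replicate 3 or CFC10 replicates 1 or 3 (adjusted p up to 0.0845) and at CFC30 without naive replicates 3 or 4 or CFC30 replicates 1, 2 or 3 (up to 0.115), and that on Pcif1 without CFC30 replicate 2 (adjusted p = 0.0512).

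At CFC30, 40 of 297 peak genes (13.5%) rose in NeuN+ nuclei, against 4.67% of all genes, and 11 (3.7%) fell, against 3.89%. At a mean of at least 10 CPM the shares that rose were 16.7% of 210 peak genes and 6.94% of all 7352. The median log2 fold change was 0.03 for peak genes and -0.005 for all genes. Leaving out 1 library moved the 40 to between 27 and 50 and the 11 to between 4 and 15, with 6, 7 and 7 without naive replicates 1, 3 and 4 and 4 and 5 without CFC30 replicates 2 and 3. CFC10 and CFC30 were compared with the same naive libraries. Of the genes that rose, 22 of 41 at CFC10 and 26 of 40 at CFC30 were higher in NeuN+ nuclei of saline animals, as were 142 of all 304 peak genes tested there (46.71%).

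In NeuN- nuclei few peak genes were called at CFC10. 3 of 297 (1.01%) rose, against 0.122% of all 14802 genes tested, and 1 (0.337%) fell, against 0.223%. Dynll1, a light chain of cytoplasmic dynein, was at 7.48, 6.59 and 7.21 CPM in the 3 naive libraries, 17.2, 16.6, 13.8 and 14.3 CPM at CFC10 and 9.75, 10.01, 12.3 and 9.47 CPM at CFC30. All CFC10 libraries were above all CFC30 libraries, and those above the naive ones. The log2 fold change was 1.09 ± 0.12 SE, adjusted p = 0.000806 at CFC10 and 0.56 ± 0.13 SE, adjusted p = 0.0312 at CFC30; the second was lost without any of the 3 naive libraries or without CFC30 replicates 1 or 3 (adjusted p up to 0.131).

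Hspa8 was at 41.5, 43.9 and 42.97 CPM in naive NeuN- libraries, 78.7, 81.8, 71.03 and 65.9 CPM at CFC10 and 76.2, 80.3, 75.3 and 65.5 CPM at CFC30, so it rose in both fractions at both times (log2 fold change 0.75 ± 0.08 SE, adjusted p = 0.000806, and 0.80 ± 0.08 SE, adjusted p = 0.000204 in NeuN-). Mat2a, which makes the methyl donor S-adenosylmethionine, went from 71.96, 69.8 and 75.6 CPM to 101, 93.96, 100.3 and 92.5 CPM and 104, 109, 93.1 and 101 CPM, with no overlap (log2 fold change 0.38 ± 0.07 SE, adjusted p = 0.0366, and 0.49 ± 0.07 SE, adjusted p = 0.00186). The Mat2a call at CFC10 held only without CFC10 replicate 2 among the fits that left out 1 library (adjusted p up to 0.15), and the fall of 3110039M20Rik (log2 fold change -0.53 ± 0.10 SE, adjusted p = 0.0399) held in none of 7.

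At CFC30, 13 of 297 peak genes (4.38%) rose in NeuN- nuclei, against 1.2% of all genes, and 5 (1.68%) fell, against 1.18%. Among genes with a mean of at least 10 CPM, 5.34% of 206 peak genes and 1.81% of all 8817 rose. The lead was Sgk1, a kinase induced by glucocorticoids, at 58.3, 51.5 and 59.03 CPM in naive, 80.9, 73.3, 76.7 and 62.7 CPM in CFC10 and 100.5, 118, 111 and 108 CPM in CFC30 libraries. The 3 groups did not overlap, and the log2 fold change at CFC30 was 0.96 ± 0.09 SE, adjusted p = 6.46e-05. The clock gene Per1 rose to 83.3, 109, 74.5 and 76.2 CPM from 49.6, 52.4 and 58.4 CPM (log2 fold change 0.68 ± 0.13 SE, adjusted p = 0.0125), a call lost without naive replicates 1 or 2 (adjusted p up to 0.0699). Klf9 (0.38), Glul, the glutamine synthetase of astrocytes (0.34), Dnaja1 (0.51), Hspa5 (0.42), the potassium channel Kcnn2 (0.52) and the RNA polymerase III subunit Polr3e (0.49) were among the others. Polr3e was lost without naive replicate 2 (adjusted p = 0.06) and Glul without naive replicate 3 (0.0728). Klf9, Dnaja1, Hspa5 and Kcnn2 were lost without any of the 3 naive libraries or without CFC30 replicate 1, and each without 1 or more other CFC30 libraries (replicate 2 for Klf9 and Dnaja1, 3 for Hspa5, 2 and 3 for Kcnn2), with adjusted p up to 0.125, 0.129, 0.14 and 0.179. Of 12 glucocorticoid response genes with a peak 4 rose (Sgk1, Per1, Klf9 and Glul), with a list median of 0.36, and of 15 without a peak 4 rose, with a median of 0.425.

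The fall of Gm3764, the host of Mir9-1, was the largest in NeuN- nuclei at CFC30. Naive libraries were at 949, 905 and 864 CPM, CFC10 libraries at 659, 713, 743 and 866 CPM and CFC30 libraries at 611, 666, 539 and 692 CPM. The CFC30 libraries were below the naive ones, and 1 CFC10 library overlapped them (log2 fold change -0.53 ± 0.09 SE, adjusted p = 0.00728, and -0.32 ± 0.09 SE, adjusted p = 0.13 at CFC10). C130071C03Rik (-0.33), Rsrp1 (-0.46), the clock output factor Dbp (-0.41) and Ppfia2 (-0.29) also fell, and none of these 4 held in every fit that left out 1 library. They were lost without naive replicates 2 or 3 or CFC30 replicate 1, without naive replicate 1 too except for Ppfia2, and without other CFC30 libraries (replicate 2 for C130071C03Rik, 3 and 4 for Dbp, 2, 3 and 4 for Ppfia2), with adjusted p up to 0.148, 0.0997, 0.222 and 0.193. In saline animals Gm3764 was highest in GFAP+ nuclei (log2 difference 3.65 ± 0.07 SE). The summed astrocyte markers of NeuN- libraries were 1532 to 1595 CPM in naive, 1347 to 1517 CPM in CFC10 and 1401 to 1451 CPM in CFC30 libraries, so they were lower after CFC without overlap. The 5 oligodendrocyte markers summed to 1369 to 1447 CPM in naive, 1523 to 1925 CPM in CFC10 and 1630 to 1968 CPM in CFC30 libraries, and the sums after CFC were above the naive ones. Of the 5, Mobp was called, at CFC30 (log2 fold change 0.62), and the median of the 5 at CFC30 was 0.044. The 3 endothelial markers summed to 131 to 205 CPM in naive libraries and to 135 to 186 CPM at CFC10. At CFC30 they summed to 303 and 311 CPM in replicates 1 and 2 and to 104 and 140 CPM in replicates 3 and 4. Their median log2 fold change at CFC30 was 0.415, and 0 of the 3 were called. The 3 mural markers were also highest in CFC30 replicates 1 and 2 (188 and 201 CPM, against 146 to 171 CPM in naive libraries). The choroid plexus and ependyma markers summed to 2.43 to 3.30 CPM in naive and 1.88 to 3.79 CPM in CFC30 libraries, but to 39.95 CPM in CFC10 replicate 2, in which Ttr was at 36.95 CPM, and to 1.95 to 5.92 CPM in the other CFC10 libraries. Without CFC10 replicate 2, 3 peak genes rose at CFC10, as with it, and none fell. The part of these shifts in the NeuN- results was not tested. With n = 3, leaving out 1 library moved the 13 that rose to between 4 and 17 (5, 4 and 5 without naive replicates 1, 2 and 3, and 6 and 8 without CFC30 replicates 1 and 2) and the 5 that fell to between 1 and 4 (2, 1 and 1 without the same naive libraries, and 1 and 3 without CFC30 replicates 1 and 3).

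Fractions were compared by the difference of their CFC effects in a single fit. At CFC10, 2 peak genes differed, against 0.0312% of all 16048 genes: Arc, whose effect was lower in NeuN- nuclei (log2 difference -1.85 ± 0.26 SE, adjusted p = 0.00163), and Dynll1, whose effect was higher there (log2 difference 0.85 ± 0.16 SE, adjusted p = 0.0381). With same-numbered libraries of a condition blocked as 1 animal, 0 differed at CFC10 (edgeR adjusted p = 0.0842 for Arc and 0.456 for Dynll1). At CFC30, 5 differed, against 0.293%, and 3 with this block, which lost Nnat (0.0727) and Polr3e (0.146). Sgk1 (1.11) and Polr3e (0.56) had the larger effect in NeuN- nuclei. Nnat (-1.22), Homer1 (-0.83) and Gm3764 (-0.62) had the lower effect there. In NeuN+ nuclei Sgk1 was at 99.7, 93.5, 102 and 90.2 CPM in naive and 74.8, 84.5, 89.6 and 100.2 CPM in CFC30 libraries, and Gm3764 at 97.7, 99.6, 99.4 and 93.4 CPM and 102, 103, 103 and 108 CPM. The Sgk1 groups overlapped and those of Gm3764 did not, and neither gene was called in NeuN+ nuclei (adjusted p = 0.215 and 0.301).

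Corticosterone asked which peak genes respond to the hormone in each population. In NeuN+ nuclei 16 of 299 peak genes (5.35%) fell, against 0.798% of all 12664 genes tested, and 11 (3.68%) rose, against 1.26%. Among genes with a mean of at least 10 CPM, 6.85% of 219 peak genes and 1.15% of all 7644 fell, and 5.02% and 1.96% rose. DESeq2 called 9 lower and 11 higher, so which direction had more calls depended on the tool. The median log2 fold change of peak genes was -0.024, and of all genes -0.003. Wipf3 rose most and was at 342, 328, 363 and 322 CPM after saline and 488, 521, 466 and 498 CPM after corticosterone, with no overlap (log2 fold change 0.56 ± 0.04 SE, adjusted p = 3.84e-14). Ip6k2, an inositol phosphate kinase (0.42), Sh3bp5 (0.35), the Arp2/3 subunit Arpc2 (0.35), the ubiquitin ligase Trim2 (0.31) and the Krüppel-like factor Klf9 (0.28) followed, each with all corticosterone libraries above all saline ones.

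Per1 was lower in NeuN+ nuclei, at 29.1, 22.1, 29.4 and 28.7 CPM after corticosterone and 42.6, 34.8, 32.2 and 35.5 CPM after saline, with no overlap (log2 fold change -0.37 ± 0.08 SE, adjusted p = 0.00179). The transcriptional regulator Lmo4 (-0.37), the Nogo receptor Rtn4r (-0.34), the nuclear factor Nfix (-0.31), the kinase Mast3 (-0.31) and the protocadherin Pcdh1 (-0.29) also fell. Rasl10a had the largest fall, from 8.69, 7.24, 5.49 and 6.39 to 4.89, 4.81, 4.04 and 4.62 CPM (log2 fold change -0.57 ± 0.15 SE, adjusted p = 0.0307), and the clock repressor Nr1d1 fell with overlapping groups (log2 fold change -0.44 ± 0.11 SE, adjusted p = 0.0211). Both overlap another peak gene (Gas2l1 and Thra) on the opposite strand. The Rasl10a call was lost without saline replicates 1 or 2 or without corticosterone replicates 3 or 4, and that of Nr1d1 without saline replicates 2 or 4 or without corticosterone replicates 1 or 2, with adjusted p up to 0.261 and 0.142. Without saline replicate 1, or without corticosterone replicate 2 or 4, 10 peak genes fell in place of 16.

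In GFAP+ nuclei 15 of 302 peak genes (4.97%) rose, against 2.03% of all 14527 genes tested, and 9 (2.98%) fell, against 0.895%. Among genes with a mean of at least 10 CPM, 5.81% of 241 peak genes and 2.93% of all 8840 rose. Of 12 genes of the glucocorticoid list, 6 rose and 1, Id3, fell. Zbtb16, a zinc finger repressor, was at 309, 588, 414 and 352 CPM after saline and 1051, 1149, 702 and 811 CPM after corticosterone, without overlap (log2 fold change 1.20 ± 0.20 SE, adjusted p = 0.00411). Gadd45g, a stress response gene, rose from 7.28, 8.89, 7.54 and 6.34 to 13.7, 16.9, 18.1 and 17.98 CPM (log2 fold change 1.21 ± 0.13 SE, adjusted p = 0.000232). Klf9 (0.58), the small GTPase Rhob (0.72) and Mat2a (0.49) rose as well.

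The neighbors Mt1 and Mt2 rose together. Mt2 was at 9.00, 10.5, 11.6 and 10.5 CPM after saline and 18.5, 20.6, 19.2 and 21.1 CPM after corticosterone in GFAP+ nuclei (log2 fold change 0.97 ± 0.10 SE, adjusted p = 0.000125). Mt1 was at 18.1, 24.1, 21.8 and 21.2 and 29.97, 44.02, 34.8 and 38.6 CPM (log2 fold change 0.83 ± 0.12 SE, adjusted p = 0.00153). Neither gene's groups overlapped. The other peak gene of that run, Mt3, was not called (log2 fold change 0.23, adjusted p = 0.474).

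Hes5, which holds back neuronal differentiation downstream of Notch, was at 12.97, 15.2, 9.84 and 13.2 CPM after saline and 4.39, 4.12, 4.10 and 3.95 CPM after corticosterone, with groups far apart (log2 fold change -1.58 ± 0.16 SE, adjusted p = 0.000125). Id3 fell from 15.3, 16.7, 13.7 and 15.3 to 6.75, 9.09, 9.23 and 9.06 CPM (log2 fold change -0.78 ± 0.12 SE, adjusted p = 0.0021). Nr1d1 (-0.45), the receptor tyrosine kinase inhibitor Spry2 (-0.44), C130071C03Rik (-0.39) and the let-7 host AC162302.2 (-0.29) fell too. Spry2 was lost without saline replicate 4 or corticosterone replicates 2 or 4 (adjusted p up to 0.0656), AC162302.2 without saline replicate 1 or corticosterone replicates 2 or 4 (up to 0.0714) and C130071C03Rik without corticosterone replicate 2 (0.051). Hes5 was also lower in 3X- nuclei, at 4.65, 3.52, 3.99 and 4.85 and 1.52, 3.37, 2.04 and 1.52 CPM (log2 fold change -0.95 ± 0.23 SE, adjusted p = 0.00542). Without corticosterone replicate 2 the genes that rose in GFAP+ nuclei numbered 8 and those that fell 4; 4 also fell without corticosterone replicate 4, and 5 without saline replicate 4.

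In PU.1+ nuclei 22 of 301 peak genes (7.31%) rose, against 4.42% of all 14279 genes tested, and 9 (2.99%) fell, against 3.39%. Among genes with a mean of at least 10 CPM, 8.85% of 226 peak genes and 6.25% of all 8722 rose. The median log2 fold change was 0.124 for peak genes and 0.003 for all. Ddit4, an inhibitor of the growth regulator mTORC1, rose most, from 1.34, 2.93, 4.39 and 3.01 CPM to 16.9, 19.5, 12.02 and 17.1 CPM, with no overlap (log2 fold change 2.50 ± 0.22 SE, adjusted p = 2.56e-06). Per1 rose from 33.7, 43.6, 66.4 and 47.1 to 119.7, 135, 104 and 107 CPM (log2 fold change 1.32 ± 0.14 SE, adjusted p = 1.91e-05), in the direction opposite to neurons. Sgk1 rose from 66.7, 72.2, 83.97 and 77.8 to 128, 141, 145 and 139 CPM (log2 fold change 0.91 ± 0.07 SE, adjusted p = 4.48e-07).

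Sh3bp5 (0.97), Klf2, a factor that keeps leukocytes quiet (0.89), the tyrosine kinase Ptk2b (0.80) and Zbtb16 (0.86) rose in PU.1+ nuclei as well. Glul, a gene of astrocytes, rose from 139.6, 134, 163 and 148 to 282, 275, 296 and 292 CPM (log2 fold change 1.01 ± 0.06 SE, adjusted p = 5.41e-08). In GFAP+ nuclei, where its level was higher, it was at 392, 503, 459 and 435 after saline and 485, 522, 494 and 509.6 CPM after corticosterone and was not called (log2 fold change 0.21, adjusted p = 0.233). The 6 astrocyte markers of PU.1+ libraries summed to 267 to 328 CPM after saline and to 443 to 611 CPM after corticosterone, without overlap, while the 7 microglial markers summed to 6601 to 7152 and 6201 to 6548 CPM. The part of this shift in the rise of Glul and other genes of astrocytes was not tested. The neuronal markers of PU.1+ libraries were 1055 to 1619 CPM and 1257 to 1660 CPM, so those groups overlapped.

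The falls in PU.1+ nuclei were led by the MAP kinase phosphatase Dusp7, from 48.7, 46.8, 39.6 and 41.7 to 23.8, 25.3, 22.5 and 23.2 CPM (log2 fold change -0.86 ± 0.08 SE, adjusted p = 4.72e-06). Junb fell from 9.79, 10.3, 9.38 and 9.77 to 4.87, 6.22, 5.24 and 6.94 CPM (log2 fold change -0.72 ± 0.13 SE, adjusted p = 0.0024). Neither gene's groups overlapped. Limd2 (-0.49) and the CDK5 activator Cdk5r1 (-0.45) followed. 5 of the 9 genes that fell and 5 of the 22 that rose were among those higher in PU.1+ nuclei of saline animals, and 9 of the 22 were among those higher in NeuN+ nuclei. Of all 304 peak genes tested in saline animals, 24 (7.89%) were higher in PU.1+ and 142 (46.71%) in NeuN+ nuclei. Without saline replicate 3 the genes that rose numbered 35.

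In 3X- nuclei 27 of 301 peak genes (8.97%) rose, against 5.0% of all 14587 genes tested, and 5 (1.66%) fell, against 2.47%. Among genes with a mean of at least 10 CPM, 11.5% of 217 peak genes and 7.47% of all 8450 rose. Zbtb16 rose most, from 329.9, 753, 457 and 374 to 1545, 2361, 1068 and 1329 CPM, with no overlap (log2 fold change 1.75 ± 0.17 SE, adjusted p = 1.07e-09). Polr3e rose from 89.95, 95.2, 111 and 86.1 to 253, 276, 240.4 and 248 CPM (log2 fold change 1.45 ± 0.08 SE, adjusted p = 1.41e-15). Its peak (chr7:120918159-120919236, 1078 bp) was among the 3 narrowest of all and covered 3.63% of the gene. Neither its start nor its end site was inside.

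Klf9 in 3X- nuclei went from 89.02, 92.8, 92.2 and 68.8 to 164, 175, 158 and 151 CPM (log2 fold change 0.96 ± 0.09 SE, adjusted p = 1.14e-10), and Sgk1 from 152, 200.1, 246 and 171 to 375, 428, 325 and 364 CPM (log2 fold change 0.99 ± 0.10 SE, adjusted p = 2.36e-09). Both had all corticosterone libraries above all saline ones. Ddit4 (1.35), Pgbd5 (0.82), Nr4a1 (0.80), the phosphatidylinositol transfer protein Pitpnm2 (0.65) and Mast3 (0.58) rose too. Fam212b (-0.69), Ptma, prothymosin alpha (-0.43), C130071C03Rik (-0.35) and Qk, an RNA-binding protein of myelin formation (-0.22), fell. The 5 oligodendrocyte markers of 3X- libraries summed to 3106 to 3389 CPM after saline and 3994 to 4509 CPM after corticosterone, without overlap. Of the 5, Mobp rose, from 1425 to 1603 CPM to 2541 to 2684 CPM, and Mog fell, and their median log2 fold change was -0.072. Both precursor markers, Pdgfra and Cspg4, rose (0.26 and 0.25), and of 4 microglial markers tested Csf1r rose, with a median of 0.864 over the 4 and summed levels of at most 71.3 CPM. The part of these shifts in the 3X- results was not tested. Qk was lost without saline replicates 1, 2 or 3 or corticosterone replicates 1, 2 or 4 (adjusted p up to 0.126). Without saline replicate 1 or corticosterone replicate 2 the genes that fell numbered 8 and 9.

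**Figure D5:**
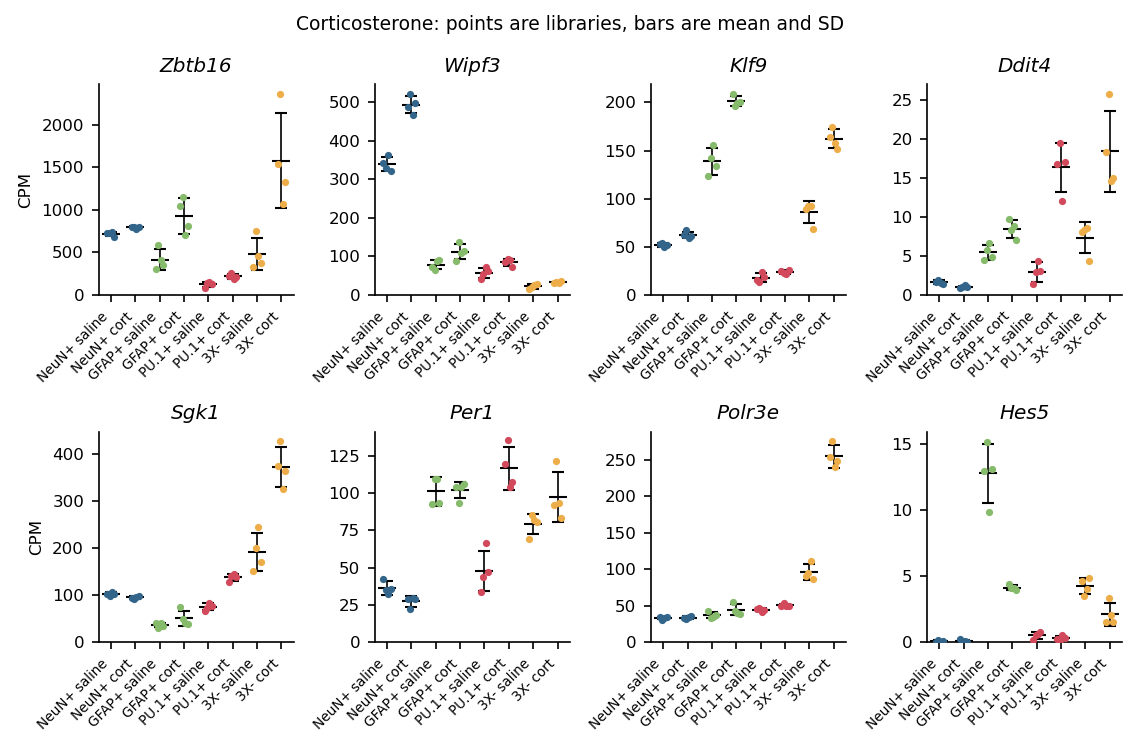
CPM of 8 peak genes after saline and corticosterone (cort) in the 4 sorted populations, colored by population; points are libraries, and bars are the mean and SD (n = 4). Zbtb16 and Wipf3 were higher after corticosterone in all 4 populations, Per1 was lower in NeuN+ and higher in PU.1+ nuclei, and Hes5 was lower in GFAP+ nuclei.

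Some responses were shared between populations. Wipf3 and Zbtb16 rose after corticosterone in all 4 populations, and Ddit4 in the 3 that were not neuronal. In NeuN+ nuclei Zbtb16 was at 724, 724, 743 and 680.4 CPM after saline and 802, 795, 777 and 802 CPM after corticosterone (log2 fold change 0.17 ± 0.04 SE, adjusted p = 0.00703), a rise that was lost without saline replicate 4 (adjusted p = 0.0856). Wipf3 rose by 0.55 in GFAP+, 0.60 in PU.1+ and 0.59 in 3X- nuclei on the log2 scale, but its groups overlapped in GFAP+ and PU.1+ nuclei, and the call in GFAP+ was lost without saline replicate 1 or without corticosterone replicates 2, 3 or 4 (adjusted p up to 0.085). Ddit4 in GFAP+ nuclei (log2 fold change 0.68 ± 0.16 SE, adjusted p = 0.0352) was lost without saline replicates 1 or 4 or without corticosterone replicates 1, 2 or 3 (adjusted p up to 0.128). Wipf3 has 3 annotated genes on the opposite strand. Among the peak genes, 190 overlap another annotated gene and 145 have a gene on the other strand. The uncertainty about strand is thus not limited to the genes marked here. 12 genes moved the same way in GFAP+ and 3X- nuclei, out of 24 called in the first and 32 in the second, and 8 in NeuN+ and PU.1+ nuclei, out of 27 and 31. The same overlap was not counted over all genes, so these counts do not set peak genes apart.

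The effect of corticosterone was then compared with that in NeuN+ nuclei in a single fit of all 32 libraries. 1 peak gene differed in GFAP+ nuclei, against 0.513% of all 18535 genes: Mat2a (0.46 ± 0.10 SE, adjusted p = 0.0147). With the animal as a block 4 differed, Mat2a (edgeR adjusted p = 0.00482), Zbtb16 (0.000182), Pitpnm2 (0.0239) and Mast3 (0.0429). In PU.1+ nuclei 10 differed, against 1.54%, with the largest differences for Ddit4 (3.11 ± 0.46 SE, adjusted p = 1.15e-05), Per1 (1.68 ± 0.18 SE, adjusted p = 7.42e-09) and Sgk1 (0.99 ± 0.17 SE, adjusted p = 0.000167). The effect on Dusp7 (-0.70) and Arpc2 (-0.35) was lower in PU.1+ nuclei. With the animal as a block 17 differed in PU.1+ nuclei, the 10 included. In 3X- nuclei 16 differed, against 2.0%, with Ddit4 (1.96), Zbtb16 (1.57 ± 0.27 SE, adjusted p = 0.000167), Polr3e (1.38 ± 0.12 SE, adjusted p = 5.59e-11) and Sgk1 (1.06) in the lead, and 20 with the animal as a block, the 16 included. Fam212b, Ip6k2, Trim2 and Arpc2 had the lower effect in 3X- nuclei. The saline and corticosterone libraries of NeuN+ nuclei are common to these 3 comparisons. With the block, the share over all genes was not counted.

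By list, 12 of 30 glucocorticoid response genes had a hippocampal peak. After corticosterone 6 of these 12 rose in GFAP+ nuclei (Zbtb16, Gadd45g, Mt1, Mt2, Klf9 and Ddit4) and 1 fell (Id3), with a median of 0.549. In PU.1+ nuclei 5 of 12 rose (median 0.762), in 3X- nuclei 6 (median 0.496) and in NeuN+ nuclei 2 of 10, with 1 that fell. The members without a peak rose in 16 of 17 cases in GFAP+ (median 0.977), 11 of 14 in PU.1+ (0.976), 12 of 15 in 3X- (1.185) and 2 of 8 in NeuN+ nuclei (0.229). In the glial populations members of this list rose with and without a peak, and in NeuN+ nuclei few rose in either case. The list was chosen with earlier results of these data known, so these counts are a description and not a test. Among circadian genes Per1 and Nr1d1 fell in NeuN+ nuclei and Nr1d1 and Dbp in GFAP+ nuclei, of 6. 3 of 14 neuronal transcription factors fell in NeuN+ nuclei (Nfix, Lmo4 and Zeb2). The call of Dbp in GFAP+ nuclei held in 1 of the 8 fits that left out 1 library (adjusted p up to 0.165) and that of Zeb2 in NeuN+ nuclei in 3 of 8 (0.165). 5 of 27 cytoskeletal genes rose in 3X- nuclei (Wipf3, Tmsb4x, Baiap2, Mical2 and Sptan1), with Sptan1 held in 6 of 8 such fits (up to 0.0973) and Baiap2 in 7 (up to 0.0522).

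Over the 8 responses, 129 of the 305 measured peak genes were called at least once, against 18.6% of all 18842 genes tested in any of them, and 176 in none. 82 were called after CFC (9.57% of all genes), 77 after corticosterone (12.7%) and 30 after both (1.97%). Peak genes are more abundant than most, and these shares were not limited to genes of similar level. Klf9 and Per1 were called in 6 of the 8 responses, and C130071C03Rik and Mat2a in 5. Klf9 rose in all 6, and C130071C03Rik fell in all 5. With 1 library left out, the Klf9 calls held in 5 of 8 fits at CFC10 and 2 of 8 at CFC30 in NeuN+ nuclei and in 2 of 7 at CFC30 in NeuN- nuclei (adjusted p up to 0.112, 0.129 and 0.125). Those of Mat2a held in 4 of 8 at CFC10 in NeuN+, 1 of 7 at CFC10 in NeuN- and 4 of 8 in 3X- nuclei (0.125, 0.15 and 0.211). 10 genes were called in both directions. Per1, Rasl10a, Rtn4r, Pcdh1 and Olfm1 rose in NeuN+ nuclei at CFC10 and fell there after corticosterone, and Baiap2, Mast3 and Ski rose at CFC30 and fell after corticosterone. In NeuN+ nuclei Per1 rose by 0.39 at CFC10 (SE 0.06, adjusted p = 0.00178) and 0.42 at CFC30, and Pcdh1 by 0.27 and 0.16. The second Pcdh1 call was lost without naive replicates 1, 2 or 4 or CFC30 replicates 2 or 3 (adjusted p up to 0.108). At CFC10 the Olfm1 call held in 3 of 8 fits that left out 1 library (adjusted p up to 0.158), that of Rasl10a in 2 of 8 (0.122) and that of Sh3gl1 in 3 of 8 (0.142). The Mast3 call at CFC30 held in 2 of 8 (0.105), and after corticosterone in NeuN+ nuclei those of Baiap2, Ski and Rasl10a held in 5, 3 and 4 of 8 (0.194, 0.278 and 0.261). Junb and Sh3gl1 rose in NeuN+ nuclei at CFC10 and fell in PU.1+ nuclei after corticosterone.

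Responses also differed along peak width. At CFC10 in NeuN+ nuclei, 12 of 90 genes of the narrow peaks rose, 20 of 100 of the middle class and 9 of 107 of the wide peaks, with median log2 fold changes of 0.209, 0.145 and 0.009. At CFC30 the counts were 6 of 90, 13 of 100 and 21 of 107. Over peaks with 1 tested gene, log10 width correlated with the log2 fold change at r = -0.342 (rho = -0.396, n = 254) at CFC10 and r = -0.1 (rho = -0.071) at CFC30 in NeuN+ nuclei, and at r = -0.434 (rho = -0.477, n = 255) and -0.256 in NeuN- nuclei. After corticosterone r was 0.226 in NeuN+, 0.066 in GFAP+, -0.029 in PU.1+ and 0.133 in 3X- nuclei. In NeuN+ nuclei after the hormone, 0 of 92 genes of the narrow peaks, 3 of 100 of the middle class and 8 of 107 of the wide peaks rose, and 0, 8 and 8 fell. The part of gene length in these relations was not tested.

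Peaks found in both regions were set apart from those of the hippocampus alone. 200 of the 305 genes had a peak that overlapped one of the mPFC by at least 1 bp, and 105 did not. The median width was 14116.5 bp and 33462 bp. At CFC10 31 of the 200 and 10 of the 105 rose in NeuN+ nuclei, and at CFC30 26 and 14. After corticosterone in NeuN+ nuclei 2 of the 200 rose and 9 of the 105, while 12 and 4 fell, and in GFAP+ nuclei 5 and 10 rose and 8 and 1 fell. Zbtb16, Wipf3, Ip6k2, Sh3bp5, Arpc2, Gadd45g, Mt1 and Mt2 had a hippocampal peak with no overlap in the mPFC. These counts were not tested against each other.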

How the data were processed

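The authors deposited 1 list of hippocampal γH2AX peaks, with coordinates and gene symbols but no score, and 2 tables of raw counts per gene. For the peaks they aligned reads to GRCm38 with Bowtie2, merged down-sampled replicates, intersected broad MACS2 calls made with a stringent and a relaxed setting, and joined the naive and CFC30 calls. For RNA they trimmed reads, aligned them with HISAT2, removed duplicates and used featureCounts on the full length of each gene, introns included. Versions and the strand setting are not given in the sources used here. Long genes therefore collect more reads, and levels of different genes are compared per length only.

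Here all genes with at least 0.2 FPKM in 1 group of a comparison were tested with edgeR's quasi-likelihood test (edgeR 4.0.16 in R 4.3.3, TMM scaling), and p-values were adjusted by Benjamini and Hochberg over all genes tested (threshold 0.05). All fold changes are log2 values from this fit with their SE. NeuN+ and NeuN- nuclei were fitted apart for CFC, with naive, CFC10 and CFC30 together, and each sorted population apart for corticosterone. Saline populations were fitted together. Differences between effects were fitted over all libraries of an experiment. CPM is the count scaled to the library's reads on genes, and FPKM divides it by the length of the gene body. The scripts were tested on simulated data. Peak coordinates are 1-based, and gene models were those of GRCm38.

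Members and gene lists were chosen with earlier results of these data known, and p-values of lists are therefore not given. List genes that are not reported here were left out of the counts and sums of their lists. Genes named are the leading calls of each comparison by size with a mean count of at least 50, the leading genes of each list, and those called in several responses; others were chosen after their values were seen. Alternatives were DESeq2 1.42.0, RLE scaling, no filter, a replicate block, single-gene peaks, entering the identical libraries separately, other thresholds at baseline and leaving out each library. Between conditions a replicate number was not taken to pair libraries: same-numbered libraries deviated together in some comparisons only, with correlations from -0.228 to 0.35. Within a condition all populations came from the same stained nuclei per the study's gating, and a block by animal (condition and number, with the NeuN- naive library of 2 numbers on its own) was added after the data were seen. Same-numbered populations had correlations of 0.012 to 0.194 after saline, -0.011 to 0.224 after corticosterone and -0.034 to 0.123 in the CFC experiment.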

Additional observations from a re-analysis of the deposited data

Results flagged for a closer look

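8 of 135 groups of 4 libraries had a library that stood apart from the other 3; chance gives about 1 in 20. In NeuN+ nuclei these were the highest CFC30 library for Egr1 (6.305 CPM) and 1700016P03Rik (15.26 CPM), which was replicate 3 in both cases, the highest CFC10 library for Hspa8 (58.06 CPM) and the lowest corticosterone library for Per1 (22.14 CPM). In 3X- nuclei saline replicate 4 was lowest for Ddit4 (4.408 CPM) and Klf9 (68.76 CPM). In GFAP+ nuclei 1 corticosterone library was lowest for Id3 (6.747 CPM) and 1 saline library highest for Mbp (505.9 CPM).

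34 effects differed between populations by the test of the difference, in log2 units. For CFC10 (NeuN- minus NeuN+) they were Dynll1 (0.85) and Arc (-1.85). Neither held with the animal as a block. For CFC30 they were Sgk1 (1.11), Polr3e (0.56), Gm3764 (-0.62), Homer1 (-0.83) and Nnat (-1.22), and with the block Polr3e and Nnat were lost. For corticosterone in GFAP+ minus NeuN+ nuclei it was Mat2a (0.46). For PU.1+ minus NeuN+ nuclei they were Ddit4 (3.11), Per1 (1.68), Sgk1 (0.99), Glul (0.99), Ptk2b (0.71), Sh3bp5 (0.6), Pcdh1 (0.52), Nedd4l (0.36), Arpc2 (-0.35) and Dusp7 (-0.7). For 3X- minus NeuN+ nuclei they were Ddit4 (1.96), Zbtb16 (1.57), Polr3e (1.38), Sgk1 (1.06), Nr4a1 (0.89), Mast3 (0.87), Pgbd5 (0.72), Per1 (0.69), Klf9 (0.65), Pitpnm2 (0.59), Baiap2 (0.48), Atp2b2 (0.44), Arpc2 (-0.39), Trim2 (-0.46), Ip6k2 (-0.56) and Fam212b (-0.59).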

How the results depend on the processing

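No called response changed sign with RLE scaling, DESeq2, no filter, the replicate block, the identical libraries entered separately or 1 library left out, and no called difference of effects with RLE scaling or either block. Without a filter on low values, 72 peak genes rose at CFC10 in NeuN+ nuclei; in NeuN- nuclei 22 rose and 9 fell at CFC10 and 28 rose at CFC30; after corticosterone 26 rose in GFAP+ and 64 in PU.1+ nuclei and 18 fell in 3X- nuclei. Of all genes, 631 rose and 401 fell at CFC10 in NeuN+ nuclei (338 and 266 with the filter), 230 and 284 at CFC10 (18 and 33) and 483 and 431 at CFC30 (177 and 175) in NeuN- nuclei, and 447 and 263 in GFAP+ (295 and 130) and 2004 and 778 in 3X- nuclei (730 and 361), where the median log2 fold change of all genes was 0.217. In PU.1+ nuclei 885 of all genes rose and 511 fell without the filter, in place of 631 and 484. DESeq2 called 6 higher and 4 lower at CFC10 and 8 lower at CFC30 in NeuN- nuclei, and 9 lower after corticosterone in NeuN+ nuclei, where it lost Chrm1, Gm3764, Nr1d1, Nrgn, Rasl10a, Ski and Zeb2. Of all genes it called 52 higher and 119 lower at CFC10 and 245 lower at CFC30 in NeuN- nuclei. After corticosterone in NeuN+ nuclei it called 43 of all genes lower. With the identical NeuN- naive libraries entered separately, 19 rose and 5 fell at CFC10 and 22 rose and 8 fell at CFC30, and of all genes 228 rose and 240 fell at CFC10, in place of 18 and 33, and 452 and 478 at CFC30, in place of 177 and 175. RLE scaling gave 2 lower at CFC10 in NeuN- nuclei, and single-gene peaks 0. A log2 difference above 2 left 82 peak genes higher in NeuN+, 21 in GFAP+, 5 in PU.1+ and 5 in 3X- nuclei of saline animals, and being higher than each of the other 3 populations left 19 in GFAP+, 10 in PU.1+ and 4 in 3X- nuclei. For these thresholds the share over all genes was not counted. The causes were not tested.

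Leaving out 1 library gave the following ranges. Genes that rose numbered 22 to 42 and genes that fell 4 to 10 at CFC10 in NeuN+ nuclei, 27 to 50 and 4 to 15 at CFC30, 2 to 3 and 0 to 0 at CFC10 in NeuN- nuclei, where the single fall was lost in each fit, and 4 to 17 and 1 to 4 at CFC30. After corticosterone they numbered 9 to 13 and 10 to 19 in NeuN+, 8 to 22 and 4 to 8 in GFAP+, 16 to 35 and 6 to 8 in PU.1+, and 24 to 32 and 4 to 9 in 3X- nuclei.

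With the replicate number as a block, 10 peak genes rose and 6 fell at CFC10 and 9 fell at CFC30 in NeuN- nuclei, 1 effect differed at CFC10 (Dynll1 was lost) and 3 in GFAP+ nuclei. Of all genes, 56 rose and 124 fell at CFC10 and 315 fell at CFC30 in NeuN- nuclei with this block. With the block by animal, chosen after seeing the data, 0 effects differed at CFC10, 3 at CFC30, 4 in GFAP+ and 17 in PU.1+ nuclei. How many of all genes differed with either block was not counted. Libraries correlated best with their own number in 42 of 48 cases in the saline and 36 of 48 in the corticosterone populations. The gene model alternative was not run, and without a score no stricter peak threshold could be set. The depth of the ChIP-seq is unknown.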

Other observations

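Other synaptic and noncoding peak genes also moved. In NeuN+ nuclei Slc17a7, the vesicular glutamate transporter of excitatory neurons, rose at CFC10 (log2 fold change 0.24 ± 0.05 SE, adjusted p = 0.00707) and CFC30 (log2 fold change 0.21 ± 0.05 SE, adjusted p = 0.00894), and so did Bsn, the active zone scaffold Bassoon (log2 fold change 0.17 ± 0.04 SE, adjusted p = 0.0249, and 0.18 ± 0.04 SE, adjusted p = 0.0111). The Bsn call at CFC10 was lost without naive replicates 1 or 3 or CFC10 replicates 1 or 3 (adjusted p up to 0.0892). A330023F24Rik, the host of the miR-29b-2 and miR-29c hairpins, rose in NeuN+ nuclei at CFC30 (log2 fold change 0.15 ± 0.04 SE, adjusted p = 0.0169, lost without CFC30 replicate 2 with adjusted p = 0.0594) and in PU.1+ nuclei after corticosterone (log2 fold change 0.37 ± 0.07 SE, adjusted p = 0.00344). Gm35501, over the miR-138-1 hairpin, rose in NeuN+ nuclei at CFC10 (log2 fold change 0.48 ± 0.10 SE, adjusted p = 0.0119). In 3X- nuclei Tmsb4x, whose product binds actin monomers, rose after corticosterone (log2 fold change 0.69 ± 0.12 SE, adjusted p = 9.06e-05). Nedd4l, a ubiquitin ligase, rose after corticosterone in NeuN+ (log2 fold change 0.19 ± 0.04 SE, adjusted p = 0.00159) and in PU.1+ nuclei (log2 fold change 0.57 ± 0.07 SE, adjusted p = 0.00013).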
